A study of Mus musculus with 18 samples.

Results

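The genes described here encode the receptors through which colony-stimulating factors act on myeloid cells, the related receptor FLT3, and the ligand CSF1. They were chosen by name, as *Csf2ra*, *Csf2rb*, *Csf2rb2*, *Il3ra*, *Csf1r*, *Csf3r*, *Csf1* and *Flt3*, and all 8 were found once each among the 20298 genes of the table. RNA was sequenced from mouse monocytes of WT mice and of STAT5 tetramer-deficient double knockin (DKI) mice, all on the C57BL/6 strain, to learn how STAT5 tetramers shape the response to GM-CSF. The 6 groups of 3 libraries were Ly6C+ CCR2+ monocytes with no GM-CSF (day 0) and monocyte-derived cells (MDCs) after 3 or 6 days in 20 ng/mL GM-CSF, in each genotype. In DKI mice, mutations in the N-domains of both *Stat5a* and *Stat5b* leave STAT5 able to form dimers but not tetramers, and every cell carries them. The number of animals behind a library, their age and their sex are not given in the sources used here. Levels are RPKM, that is read counts divided by the length of the gene and by the mapped reads of the library, so that they can be set side by side between genes.

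GM-CSF signals through an alpha chain that binds it and a beta chain that carries the kinase JAK2, which phosphorylates STAT5. In mice the beta chain shared with the receptors for IL-3 and IL-5 is encoded by *Csf2rb*, and a neighbouring copy, *Csf2rb2*, encodes a beta chain used by the IL-3 receptor alone. CSF1R and FLT3 are tyrosine kinases of a different family, the first required by macrophages and the second by progenitors of dendritic cells, while CSF3R, the receptor for G-CSF, is best known from neutrophils.

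The depth, recovered from the step that 1 read makes in RPKM, was 29542198 to 43157716 mapped reads per library, and the least covered values of the 8 genes rested on 41 reads for *Csf3r* and 59 reads for *Flt3*. The sample labels name liver as the tissue and the study's description names bone marrow, and 4 liver genes summed to at most 0.047 RPKM in a library. The sum of 8 monocyte genes lay between 13888 and 20975 RPKM in WT monocytes. *Stat5a* lay between 27.2 and 62.4 RPKM in WT MDCs and between 9.22 and 14.4 RPKM in DKI MDCs, and *Stat5b* lay between 17.1 and 29.0 RPKM in WT and between 12.6 and 16.5 RPKM in DKI MDCs, while RNA levels do not show the mutations. The correlation of each library with the others of its group averaged 0.904 to 0.935 in DKI MDCs and 0.946 to 0.968 in all other groups. DKI replicate 1 was the lowest on both days, and on day 3 it held *Ly6c2*, a monocyte surface gene, at 775 RPKM against 49.5 and 73.8 RPKM in the other DKI libraries. The library names of replicate 1 on days 3 and 6, in both genotypes, hold an earlier year than the rest, so the calls were also made within the libraries of the later year.

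On day 0 the receptor genes were at nearly the same level in WT and DKI monocytes. *Csf1r*, the CSF1 receptor, was the highest, with a WT mean of 272 ± 41.5 RPKM and a DKI mean of 262 ± 40.1 RPKM (SD, n = 3). *Csf2ra*, the alpha chain of the GM-CSF receptor, followed at 157 ± 22.1 and 153 ± 9.99 RPKM, and its range overlapped that of *Csf2rb*, at 124 ± 47.2 and 129 ± 40.3 RPKM. *Il3ra* (45.7 ± 10.4 RPKM in WT), *Csf3r* (39.2 ± 5.06), *Csf1* (35.9 ± 31.6) and *Csf2rb2* (28.7 ± 10.3) came next, and each of these overlapped its neighbour in the order. *Flt3* was the lowest, with a WT mean of 5.603 ± 1.12 RPKM and a DKI mean of 5.85 ± 1.31 RPKM, below every library of the other 7 genes. The order was the same in both genotypes.

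**Figure D1:**
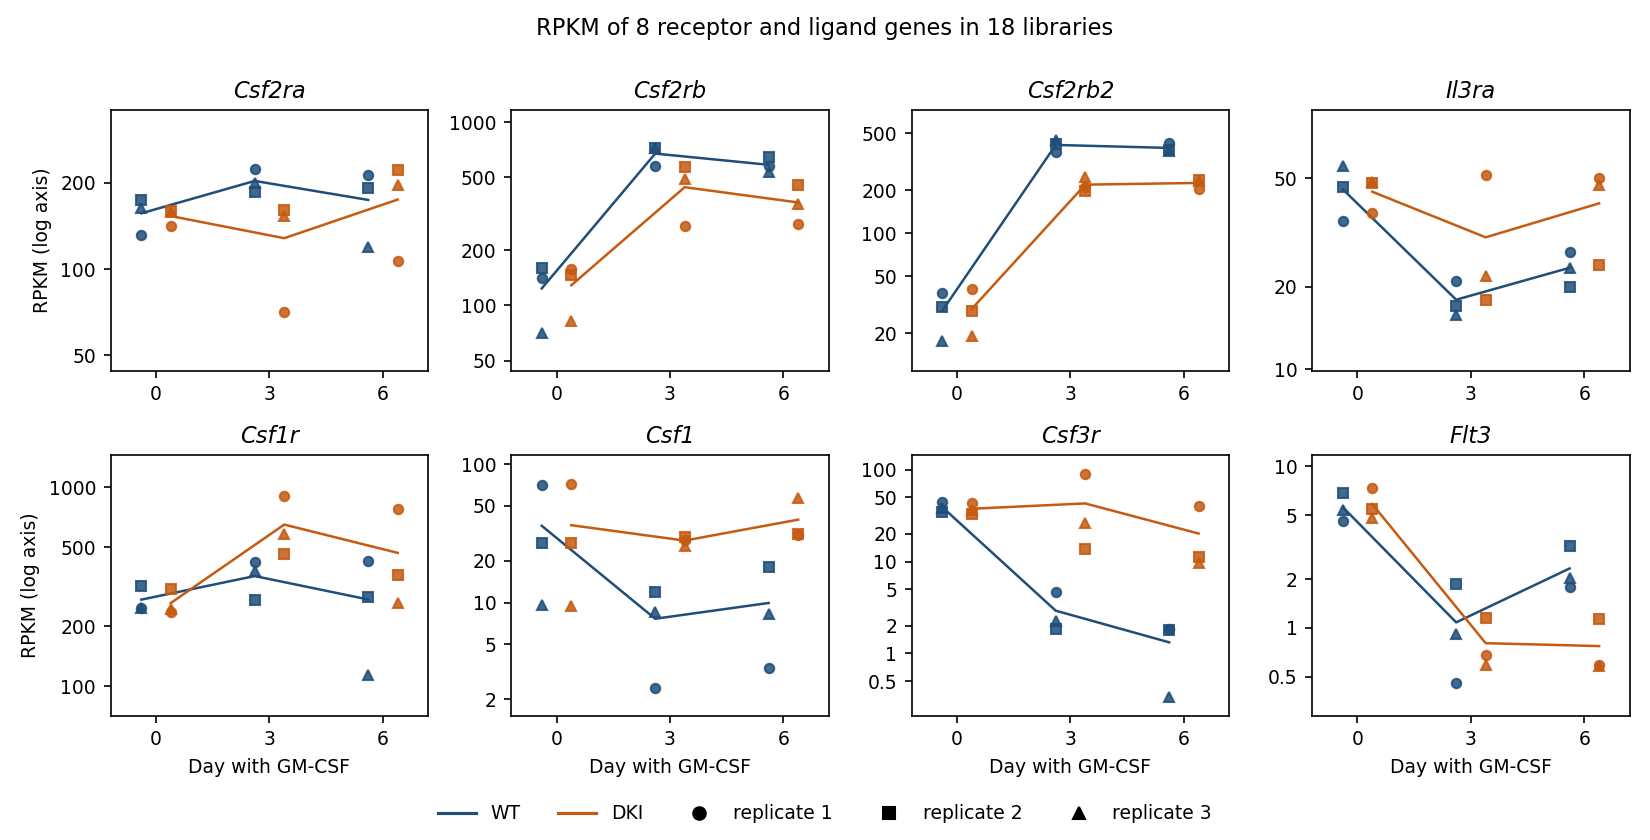
RPKM of the 8 genes (log axis, a separate scale for each gene) in each of the 18 libraries on days 0, 3 and 6, with WT in blue, DKI in orange, a symbol for each replicate number and lines through the group means. On day 0 the genotypes lie on top of each other, whereas on days 3 and 6 *Csf2rb2* is lower and *Csf3r* and *Csf1* are higher in each DKI library than in each WT library.

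Genes were compared on the scale of log2(RPKM + 1) with limma, a linear model with a variance estimate shared across genes, among genes with a mean above 2 RPKM in at least one group compared. A gene was called at a Benjamini-Hochberg adjusted p under 0.05 over all genes fitted and a fold change above 1.5. On day 0, none of the 8 genes was called (0% of 9179 genes fitted), and no gene had genotypes that did not overlap, against 1.03% of all genes. The log2 fold changes of DKI against WT were between −0.06 and 0.09. The 95% interval was narrowest for *Csf2ra*, from −0.37 to 0.32, and widest for *Csf1*, from −2.24 to 2.24. At an unadjusted p under 0.05, limma found 44 genes over the whole table on day 0, and none of the 8 was among them. With the replicate number as a block, limma found 352 genes at that limit.

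The wide interval of *Csf1*, the ligand of CSF1R, came with a spread that followed the replicate numbers. WT monocytes held *Csf1* at 70.9, 27.0 and 9.62 RPKM in replicates 1 to 3, and DKI monocytes held it at 72.2, 27.1 and 9.45 RPKM. The libraries of one genotype thus differed by 7.38-fold in WT and 7.64-fold in DKI, while the ratio of DKI to WT in same-numbered libraries was 1.017, 1.004 and 0.982. Of 10 neutrophil genes, *Camp*, *Ltf*, *Ngp* and *Cxcr2* had the same order of libraries in both genotypes, *Mpo*, *Elane* and *Prtn3* had the reverse order in both, and the sum of the 10 ran from 1496 to 1725 RPKM in WT and from 1295 to 1692 RPKM in DKI. The part of these cells in the *Csf1* values was not tested.

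With GM-CSF, the transcripts of both beta chains rose. *Csf2rb* was at 141, 160 and 70.6 RPKM in WT monocytes and at 575, 721 and 725 RPKM in WT MDCs on day 3. The corresponding DKI values were 157, 146 and 82.8 RPKM on day 0 and 271, 568 and 487 RPKM on day 3. In both genotypes every day 3 library was above every day 0 library. *Csf2rb* was called higher on day 3 in WT (log2 fold change 2.51, standard error 0.31, adjusted p = 0.00114 by limma) and in DKI (1.76, standard error 0.37, adjusted p = 0.0143).

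*Csf2rb2* showed the largest rise with GM-CSF among the 8 genes. It went from 37.9, 30.7 and 17.6 RPKM in WT monocytes to 368, 420 and 450 RPKM on day 3. DKI cells started at 40.6, 28.9 and 19.3 RPKM and reached 211, 198 and 245 RPKM. The ratio of the group means was 14.4 in WT and 7.37 in DKI. Both rises were called, with a log2 fold change of 3.86 in WT (standard error 0.28, adjusted p = 0.000148 by limma) and 2.895 in DKI (standard error 0.28, adjusted p = 0.00153). The difference between these rises, tested as an interaction of genotype and day, was −0.96 with a 95% interval from −1.89 to −0.04, and it was not called (adjusted p = 0.292 by limma).

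*Csf2rb2* was lower in DKI than in WT MDCs, by 1.89-fold in the group means on day 3 and by 1.75-fold on day 6. WT MDCs of day 6 held 428, 380 and 372 RPKM, and DKI MDCs held 205, 235 and 233 RPKM. The genotypes did not overlap on either day, and all 3 same-numbered DKI libraries were lower on each day. The log2 fold change was −0.92 on day 3 (standard error 0.19, adjusted p = 0.0405 by limma) and −0.81 on day 6 (standard error 0.17, adjusted p = 0.0410). With the replicate number as a block, the adjusted p by limma was 0.0711 on day 3 and 0.0667 on day 6, which ends both calls. Neither call held within the libraries of the later year (−0.98, adjusted p = 0.0666 by limma on day 3; −0.68, adjusted p = 0.254 on day 6). Leaving out single libraries gave an adjusted p by limma of 0.0466 to 0.139 on day 3, where the call held without DKI replicate 1 and no other, and of 0.0550 to 0.152 on day 6, where no such call held.

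*Csf2rb* on day 6 had WT levels of 579, 643 and 533 RPKM and DKI levels of 277, 457 and 360 RPKM. Like *Csf2rb2*, it had genotypes that did not overlap on day 3 or day 6, but it was not called. The log2 fold change of DKI against WT was −0.67 on day 3 (95% interval −1.45 to 0.12, adjusted p = 0.255 by limma) and −0.71 on day 6 (95% interval −1.28 to −0.14, adjusted p = 0.113). DKI replicate 1 was the lowest of its group on both days, and without it the day 3 value was −0.35. These are RNA levels, and receptor protein can differ from them. The study itself reported more of the alpha chain and of the shared beta chain in DKI than in WT MDCs.

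Both genes lie on chromosome 15 of GRCm38, *Csf2rb* from 78325800 to 78351001 and *Csf2rb2* from 78282507 to 78305721. Their coding sequences are identical at 2505 of 2631 aligned bases (95.2%). Reads that match both copies may have been dropped or split, which the sources used here do not state, so the level of each is uncertain. Of all windows of 50 bases in the *Csf2rb* transcript, 18.9% also occur in the *Csf2rb2* transcript, and of windows of 100 bases 7.16% do. Among stretches of 90 coding bases with no gap and within 1 exon of each gene, the one with the most differences is shown to let a reader see what separates the copies, with capitals at the 16 bases that differ, at chr15:78338897-78338986 on the plus strand for *Csf2rb* and at chr15:78294345-78294434 on the minus strand for *Csf2rb2*.
Csf2rb: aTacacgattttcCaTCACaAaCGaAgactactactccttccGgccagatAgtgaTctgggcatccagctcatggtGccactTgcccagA
Csf2rb2: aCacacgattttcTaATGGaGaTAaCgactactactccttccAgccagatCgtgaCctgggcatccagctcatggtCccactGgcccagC
A stretch of 90 bases with 0 differences is shown beside it, since a read that lies wholly within it matches both genes, at chr15:78341658-78341747 for *Csf2rb* and chr15:78291563-78291652 for *Csf2rb2*.
Both copies: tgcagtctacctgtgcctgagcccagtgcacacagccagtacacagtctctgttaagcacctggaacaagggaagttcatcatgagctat

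Since reads could move between the copies, their sum was examined too. *Csf2rb* and *Csf2rb2* together gave 943, 1142 and 1176 RPKM in the WT libraries of day 3, and the DKI libraries gave 482, 766 and 732 RPKM. The sums of day 6 were 1007, 1024 and 905.6 RPKM for WT and 482, 692 and 592.5 RPKM for DKI. Each DKI library was below each WT library on both days, and an exact two-sided permutation test gave p = 0.1 on each day, the smallest that 3 libraries against 3 allow. On day 0, *Csf2rb2* made up 19.1 ± 2.67% of the WT sum and 18.6 ± 2.04% of the DKI sum (SD, n = 3). The day 3 shares were 38.05 ± 1.13% (WT) and 34.4 ± 9.055% (DKI), and those of day 6 were 40.25 ± 2.77% and 38.6 ± 4.27%. The shares of the genotypes overlapped on every day (exact permutation p = 0.8, 0.7 and 0.6 on days 0, 3 and 6), and a difference in share was not detectable with 3 libraries a group.

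**Figure D2:**
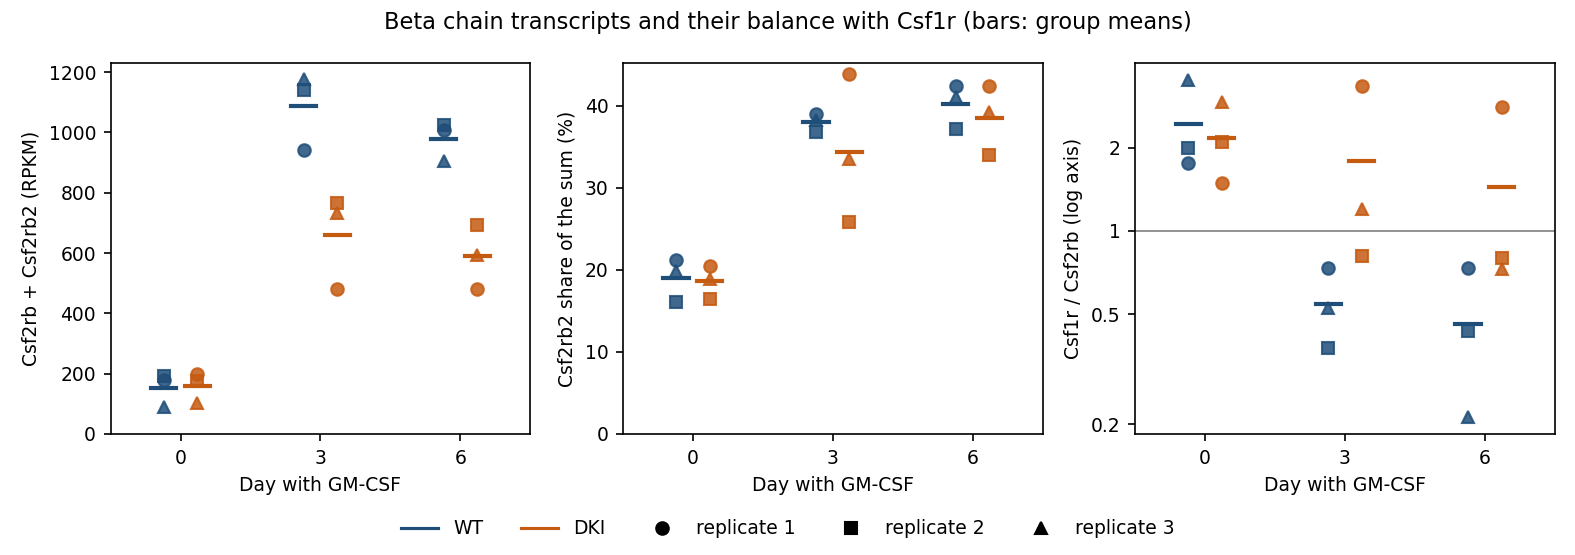
Summed RPKM of *Csf2rb* and *Csf2rb2*, the percentage of the sum from *Csf2rb2*, and the ratio of *Csf1r* to *Csf2rb* (log axis, line at 1) in each library by day, with bars at the group means. The sum is lower in every DKI library on days 3 and 6, the share overlaps between the genotypes, and DKI replicate 1 has the highest ratio of *Csf1r* to *Csf2rb* on both days, at 3.34 and 2.81.

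The 250 bases before the start of *Csf2rb2* are shown because this gene was called on both days and its promoter holds a STAT motif. Promoters came from RefSeq (GRCm38.p6), where 6 of the 8 genes were matched in a table of 300-base promoters, and *Csf2rb* and *Csf1r* were not. The motifs searched on both strands were TTCNNNGAA (STAT), GAGGAAG (PU.1), TTGCNNAA (C/EBP) and TGTGGT (RUNX). In *Csf2rb2*, at chr15:78305722-78305971 on the minus strand, capitals mark the PU.1 motif that starts at base −168 on the other strand and the STAT motif that starts at base −15.
Csf2rb2: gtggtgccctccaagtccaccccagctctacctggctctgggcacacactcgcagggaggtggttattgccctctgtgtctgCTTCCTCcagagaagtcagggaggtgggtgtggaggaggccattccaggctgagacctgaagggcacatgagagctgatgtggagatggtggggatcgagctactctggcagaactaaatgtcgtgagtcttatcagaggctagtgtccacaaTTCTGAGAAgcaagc
*Csf2rb2* alone among the 6 promoters held the STAT motif, which is found in 8.3% of the 32851 promoters of the table. PU.1 is a transcription factor of the myeloid lineage whose motif is found in 13.6% of promoters. It occurred in *Csf2rb2*, with a second match at base 29 that is not shown, in *Csf2ra* as a pair that share 1 base, and in *Csf3r*. The C/EBP motif, in 10.8% of promoters, occurred in *Il3ra*, and the RUNX motif, in 16.8%, in none of the 6. Short windows show these matches in capitals, for *Csf2ra* at chr19:61228419-61228440 on the minus strand, for *Csf3r* at chr4:126024565-126024587 and for *Il3ra* at chr14:14346353-14346376, both on the plus strand.
Csf2ra: ctgcagatGAGGAAGAGGAAGc
Csf3r: cttcctgaGAGGAAGgggctgtc
Il3ra: tcaggaagTTGCTCAAtctcggga
The windows of *Csf2ra*, *Csf3r* and *Il3ra* lie within the gene spans given below, which begin upstream of the start sites used for these promoters. These matches describe the letters of the windows only, and binding was not measured in the table used here.

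*Csf2ra*, the chain that binds GM-CSF, was not called in any comparison. The WT libraries of day 0 held 132, 174 and 164 RPKM, those of day 3 held 224, 186 and 199 RPKM and those of day 6 held 213, 192 and 119 RPKM. The DKI libraries held 142, 159 and 159 RPKM, then 70.7, 161 and 153 RPKM, and by day 6 106.6, 222 and 196 RPKM. On day 3 the genotypes did not overlap, and DKI replicate 1 was the lowest of all. The log2 fold change of DKI against WT was −0.75 on day 3 (95% interval −1.56 to 0.07, adjusted p = 0.223 by limma), −0.37 without DKI replicate 1, and −0.02 on day 6 (95% interval −0.87 to 0.83). The ratio of *Csf2rb* to *Csf2ra*, chosen after its values were seen, went from 0.806 ± 0.333 on day 0 to 3.36 ± 0.698 on day 3 in WT and from 0.851 ± 0.301 to 3.51 ± 0.324 in DKI (SD, n = 3). By day 6 the ratio stood at 3.52 ± 0.886 (WT) and 2.16 ± 0.394 (DKI), without overlap (exact permutation p = 0.1, the smallest possible).

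*Il3ra*, the alpha chain of the IL-3 receptor, fell with GM-CSF in WT cells. WT levels were 34.8, 46.6 and 55.5 RPKM before GM-CSF, 21.1, 17.0 and 15.8 RPKM after 3 days and 27.0, 20.1 and 23.5 RPKM after 6 days. The log2 fold change of day 3 against day 0 in WT was −1.28 (standard error 0.21, adjusted p = 0.00283 by limma). DKI levels were 37.4, 48.2 and 48.5 RPKM before GM-CSF, 51.5, 17.9 and 21.9 RPKM after 3 days and 50.1, 24.1 and 47.3 RPKM after 6 days. DKI replicate 1 on day 3 stood at the level of day 0 and the other libraries below it. The DKI change by day 3 was −0.68 (95% interval −1.604 to 0.24, adjusted p = 0.206 by limma) and was called without replicate 1 (−1.13, adjusted p = 0.00838). The genotypes overlapped on both days, with log2 fold changes of 0.59 on day 3 (adjusted p = 0.381 by limma) and 0.70 on day 6 (adjusted p = 0.183), although all 3 same-numbered DKI libraries were higher on each day. Without DKI replicate 1 the day 3 log2 fold change was 0.14 (adjusted p = 0.655 by limma). Without DKI replicate 2, which had the lowest DKI level, the day 6 difference was 1.03 and was called (adjusted p = 0.0315 by limma).

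*Csf1r*, the receptor that marks and maintains macrophages, rose with GM-CSF in DKI cells. Its DKI levels were 235, 308 and 243 RPKM before GM-CSF, 905, 461 and 585 RPKM after 3 days and 780, 364 and 261 RPKM after 6 days. WT levels on the same days were 248.6, 320 and 248 RPKM, then 421, 272 and 381 RPKM, then 426, 279 and 113.3 RPKM. By day 3 it had changed by a log2 fold change of 1.26 in DKI (standard error 0.30, adjusted p = 0.0192 by limma) and 0.38 in WT (95% interval −0.13 to 0.89, adjusted p = 0.182). The interaction was 0.88 (95% interval 0.06 to 1.70) and was not called (adjusted p = 0.275 by limma), so the rise was not shown to differ between the genotypes. DKI exceeded WT in all 3 same-numbered pairs on day 3, by 1.53- to 2.15-fold, and on day 6, by 1.302- to 2.31-fold. Without DKI day 0 replicate 1 or 3, the rise in DKI cells was no longer called (adjusted p = 0.0630 and 0.0646 by limma). The log2 fold change of DKI against WT was 0.83 on day 3 (95% interval 0.05 to 1.604, adjusted p = 0.169 by limma) and 0.82 on day 6 (95% interval −0.61 to 2.24, adjusted p = 0.403). Without DKI replicate 1 it was 0.56 on day 3 and 0.37 on day 6, and without single libraries it ran from 0.28 to 1.235 on day 6.

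The levels of *Csf1r* and *Csf2rb* were also compared within each library, a comparison chosen after its values were seen. In WT MDCs *Csf2rb* was above *Csf1r* in all 3 libraries of day 3 and all 3 of day 6. *Csf1r* was above *Csf2rb* in 2 of 3 DKI libraries on day 3 and in 1 of 3 on day 6, and in all 6 libraries of day 0. The ratio of *Csf1r* to *Csf2rb* on day 3 was 0.545 ± 0.179 (WT) and 1.785 ± 1.36 (DKI), without overlap (exact permutation p = 0.1, the smallest possible). The day 6 values were 0.461 ± 0.262 and 1.445 ± 1.185, and DKI replicate 2 and 3, at 0.796 and 0.726, lay around the highest WT library, at 0.735. DKI replicate 1 had the highest ratio on both days, and the ranges of both genes overlapped in DKI MDCs.

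Levels of *Csf1*, the ligand, lay above every WT library in each DKI library after GM-CSF. WT MDCs held 2.44, 11.9 and 8.59 RPKM on day 3, and DKI MDCs held 28.5, 29.99 and 25.6 RPKM. By day 6 WT MDCs held 3.39, 18.2 and 8.23 RPKM, and DKI MDCs held 30.9, 31.2 and 57.1 RPKM. The DKI mean was 3.67 times the WT mean on day 3 and 3.997 times on day 6. The gene just missed the threshold, with a log2 fold change of 1.95 on day 3 (standard error 0.47, adjusted p = 0.0593 by limma) and 2.09 on day 6 (standard error 0.54, adjusted p = 0.0660). Over libraries left out in turn, the adjusted p by limma ran from 0.0443 (without WT replicate 1) to 0.128 on day 3 and from 0.0349 (without WT replicate 2) to 0.189 on day 6, and within the libraries of the later year it was 0.0467 on day 3 (log2 fold change 1.37) and 0.213 on day 6 (1.70). From day 0 to day 3, the log2 fold change was −1.88 in WT (95% interval −3.67 to −0.10, adjusted p = 0.0764 by limma, and −2.58 and 0.0233 without WT day 0 replicate 3) and 0.06 in DKI (95% interval −1.47 to 1.59).

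*Csf3r*, the G-CSF receptor, showed the largest difference between the genotypes among the 8 genes. WT monocytes held 44.5, 34.4 and 38.7 RPKM, WT MDCs of day 3 held 4.67, 1.85 and 2.24 RPKM and those of day 6 held 1.84, 1.78 and 0.335 RPKM. DKI cells started at 43.6, 33.0 and 36.1 RPKM and held 89.3, 13.6 and 26.0 RPKM on day 3 and 39.9, 11.1 and 9.53 RPKM on day 6. Every DKI MDC library lay above every WT MDC library, and the group means differed by 14.7-fold on day 3 and 15.3-fold on day 6. DKI against WT was called on both days, at a log2 fold change of 3.14 on day 3 (standard error 0.66, adjusted p = 0.0426 by limma) and 2.98 on day 6 (standard error 0.58, adjusted p = 0.0362). On day 6 the gene passed the RPKM limit through the DKI mean of 20.2 RPKM, with the WT mean at 1.32 RPKM. The added 1 RPKM shrinks these values, which were 3.51 on day 3 and 3.80 on day 6 with a pseudocount of 0.1.

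The spread of *Csf3r* in DKI MDCs was wide, since replicate 1 was 6.59-fold above replicate 2 on day 3 and 4.19-fold above replicate 3 on day 6. Without DKI replicate 1 the log2 fold change was 2.41 on day 3 (adjusted p = 0.0282 by limma) and 2.36 on day 6 (adjusted p = 0.0466). Within the libraries of the later year it was 2.71 on day 3 (adjusted p = 0.0357 by limma) and 2.55 on day 6 (adjusted p = 0.120), which ends the call of day 6. Leaving out each library in turn gave 2.41 to 3.72 on day 3 (adjusted p = 0.0282 to 0.138 by limma) and 2.36 to 3.34 on day 6 (0.0392 to 0.120), and on each day the call held without DKI replicate 1 or 2 and ended without DKI replicate 3 or any 1 WT library.

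*Csf3r* was the 1 of the 8 genes with a called interaction. In WT cells its log2 fold change from day 0 to day 3 was −3.42 (standard error 0.27, adjusted p = 0.000212 by limma), and in DKI cells it was −0.22 (95% interval −1.70 to 1.25, adjusted p = 0.798). The difference between the genotypes was 3.20 (standard error 0.74, adjusted p = 0.0478 by limma), where 2.91% of 10212 genes were called. The call held without DKI day 3 replicate 1 (2.47, adjusted p = 0.0166 by limma) or 2 and within the libraries of the later year (2.77, adjusted p = 0.00614 by limma), and ended without any other single library of the 12, with differences of 3.00 to 3.50 and adjusted p up to 0.118. From day 3 to day 6 the genotype effect changed by −0.15 (95% interval −2.30 to 1.99), and none of the 8 genes was called in this interaction (0% of genes).

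Some markers of other cells were also higher in DKI MDCs. The sum of 10 neutrophil genes on day 3 ran from 113.7 to 782 RPKM in WT and from 811 to 1431 RPKM in DKI libraries, and on day 6 from 119.7 to 508 and from 501 to 931 RPKM. Between the DKI libraries of day 3 this sum did not follow *Csf3r*. Replicate 1 had the highest *Csf3r* and the lowest sum, and replicate 2 had the lowest *Csf3r* and the highest sum. Of these 10 genes, 4 were higher in every DKI library on day 3 and 1 was on day 6, and the others overlapped. Over all genes fitted, the genotypes did not overlap in either direction for 36.3% on day 3 and 37.2% on day 6. *Cxcr2*, a chemokine receptor of neutrophils, had day 3 levels of 2.84, 19.7 and 13.03 RPKM in WT and of 1.65, 3.09 and 2.73 RPKM in DKI, and the levels of *Camp*, *Ltf*, *Ngp*, *Mpo* and *Elane* overlapped between the genotypes. *Mmp8*, a granule protease, ran from 83.7 to 283 RPKM in the WT and from 372 to 1113 RPKM in the DKI libraries of day 3. It was the largest part of the neutrophil sum in each of these DKI libraries. It gave 372, 901 and 1113 RPKM of sums of 811, 1431 and 1169 RPKM. *Ly6g*, the defining surface marker of neutrophils, had WT levels of 0.210, 0.525 and 0 RPKM and DKI levels of 7.03, 1.38 and 2.93 RPKM on day 3, and on day 6 it overlapped, from 0.460 to 1.13 RPKM in WT and from 0.443 to 21.5 RPKM in DKI. The sum of 8 monocyte genes ran from 3168 to 5141 RPKM in the WT and from 10261 to 22396 RPKM in the DKI libraries of day 3, and 5 of the 8 were higher in every DKI library. On day 6 it ran from 4789 to 5810 RPKM in WT and from 12012 to 19178 RPKM in DKI, with 2 of the 8 higher in every DKI library. *Lyz2*, the gene of lysozyme, made up most of the DKI sums, with 12766, 7417 and 18907 RPKM on day 3. The part of other cells in the *Csf3r* values was not tested, and in bulk RNA more cells of a type cannot be told apart from more RNA per cell.

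*Flt3* fell with GM-CSF in both genotypes. WT monocytes held 4.62, 6.82 and 5.37 RPKM, and WT MDCs of day 3 held 0.457, 1.87 and 0.918 RPKM. DKI cells went from 7.31, 5.47 and 4.78 RPKM to 0.681, 1.15 and 0.588 RPKM. Every day 3 library was below every day 0 library, with a log2 fold change of −1.71 in WT (standard error 0.29, adjusted p = 0.00327 by limma) and −1.92 in DKI (standard error 0.23, adjusted p = 0.00285). In both genotypes the gene passed the RPKM limit through day 0, with day 3 means of 1.08 RPKM in WT and 0.805 RPKM in DKI. *Flt3* was under the RPKM limit in the comparison of the genotypes on day 3 and was not fitted there, and its levels overlapped (exact permutation p = 0.7).

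By day 6, *Flt3* levels were 1.78, 3.20 and 2.03 RPKM in WT libraries and 0.591, 1.14 and 0.585 RPKM in DKI libraries. It was higher on day 6 than on day 3 in all 3 same-numbered WT pairs, and in DKI cells it ran from 0.588 to 1.15 RPKM on day 3 and from 0.585 to 1.14 RPKM on day 6. The genotypes did not overlap on day 6, where the log2 fold change was −0.90 (95% interval −1.53 to −0.28, adjusted p = 0.0816 by limma). The gene passed the RPKM limit through the WT mean, which was 3.02 times the DKI mean, and at these levels the added 1 RPKM shrinks the value, which was −1.50 with a pseudocount of 0.1 and −1.61 with voom on recovered reads, also not called (adjusted p = 0.0805 and 0.0788 by limma). The change of the genotype effect between days 3 and 6 was −0.74 (95% interval −1.63 to 0.15, and −1.25 with a pseudocount of 0.1) and was not called (adjusted p = 0.9998 by limma). The sum of 5 genes of conventional dendritic cells ran from 22.5 to 37.4 RPKM in the WT and from 7.36 to 13.1 RPKM in the DKI libraries of day 6, with 3 of the 5 lower in every DKI library. The sum of 5 progenitor genes ran from 29.5 to 31.9 RPKM in WT and from 7.40 to 9.17 RPKM in DKI on that day, also with 3 of the 5 lower in every DKI library. Over all genes fitted on day 6, the genotypes did not overlap in either direction for 37.2%. The part of these cells in the *Flt3* values was not tested.

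**Figure D3:**
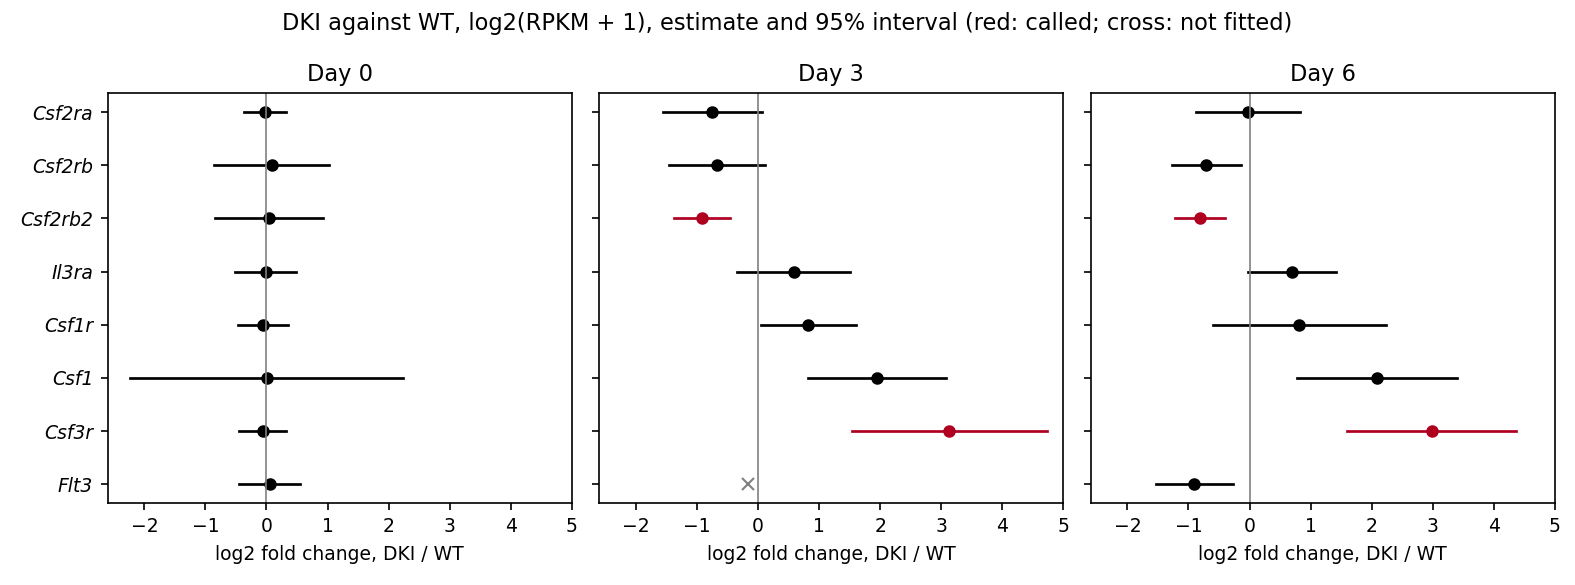
Log2 fold change of DKI against WT on the scale of log2(RPKM + 1) for each of the 8 genes on days 0, 3 and 6, with the 95% interval from limma, called genes in red, and a cross for *Flt3* on day 3, which was not fitted. *Csf2rb2* (−0.92 and −0.81) and *Csf3r* (3.14 and 2.98) are the genes called on days 3 and 6.

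Counted over the 8 genes, 7 were fitted for DKI against WT on day 3 and 2 were called, *Csf3r* higher and *Csf2rb2* lower. Over all genes on that day 7.42% were called, 3.21% higher and 4.21% lower, and these 723 genes became 197 to 216 without any 1 WT library, 415 without DKI replicate 2 and 432 without DKI replicate 3. The genotypes did not overlap for 6 of the 8 genes, against 36.3% of all genes. On day 6 all 8 were fitted and the same 2 genes were called, against 7.54% of all genes, with 2.72% higher and 4.82% lower, and 5 of the 8 did not overlap, against 37.2%. These 742 genes became 90 without DKI replicate 3 and 251 without DKI replicate 1, and the counts without WT replicate 1 or 3 lay between these. Among those fitted, the median log2 fold change was 0.59 (day 3) and 0.34 (day 6), beside medians of −0.11 and −0.17 over all genes.

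Over time, 5 of the 8 genes were called from day 0 to day 3 in WT, where 43.1% of all genes were. *Csf2rb* and *Csf2rb2* rose (20.3% of all genes rose) and *Il3ra*, *Csf3r* and *Flt3* fell (22.8% fell). In DKI cells 4 were called, where 34.2% of all genes were, with *Csf2rb*, *Csf2rb2* and *Csf1r* higher (13.1% of all genes) and *Flt3* lower (21.1%). All 9 of these calls held within the libraries of the later year. Within a genotype, the comparisons of day 3 with day 0 and of day 6 with day 3 share the day 3 libraries. From day 3 to day 6 no gene was called by limma in either genotype (0% of all genes), and at an unadjusted p under 0.05 there were 722 genes in WT and 93 in DKI, with none of the 8 among them. With the replicate block these counts were 1221 and 471.

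**Figure D4:**
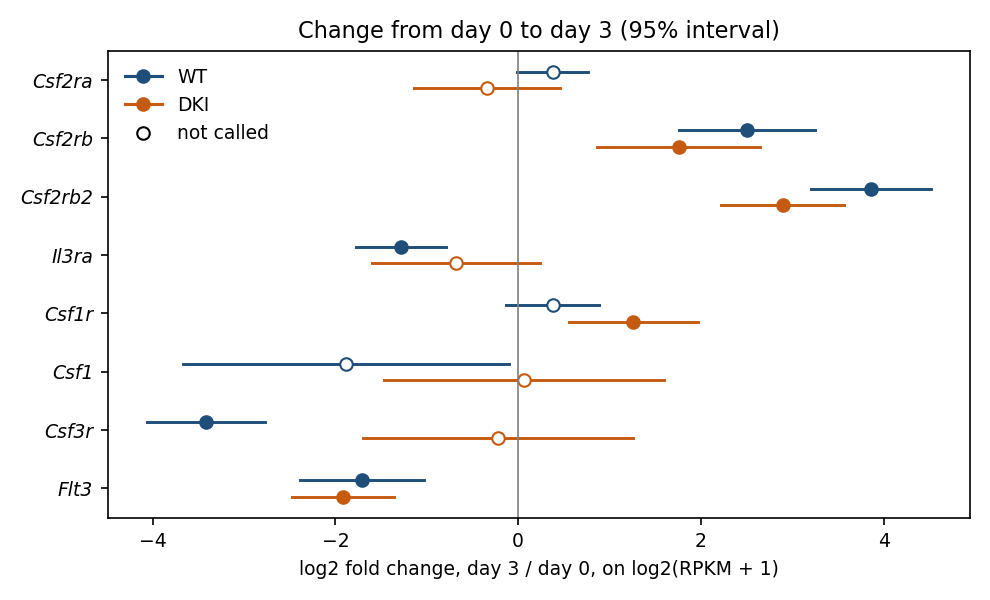
Log2 fold change from day 0 to day 3 on the scale of log2(RPKM + 1) in WT (blue) and DKI (orange) cells with 95% intervals, filled where called. The WT and DKI intervals of *Csf3r* do not overlap, at −3.42 and −0.22, whereas those of *Flt3* and both beta chains do.

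The order of the levels on day 3 also differed from that of day 0. In WT MDCs it ran from *Csf2rb* (674 ± 85.8 RPKM) through *Csf2rb2* (413 ± 41.5) and *Csf1r* (358 ± 77.3), whose ranges overlapped, to *Csf2ra* (203 ± 19.3) and *Il3ra* (17.96 ± 2.79). In DKI MDCs it ran from *Csf1r* (650.2 ± 229.5 RPKM) and *Csf2rb* (442 ± 154), whose ranges overlapped, through *Csf2rb2* (218 ± 24.5) to *Csf2ra* (128 ± 50.03), and then *Csf3r*, *Il3ra* and *Csf1*, which overlapped with their neighbours. *Flt3* was the lowest in every group but WT MDCs on day 6, where *Csf3r* was lowest at 1.32 ± 0.854 RPKM and overlapped *Flt3*.

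Genes that act next to these receptors were taken from lists, and each list is described by its counts. Among 18 genes of proximal signalling, all were fitted, and DKI against WT MDCs showed 0 higher and 2 lower on day 3 and 0 higher and 4 lower on day 6, with medians of −0.31 and −0.24. Of all genes 4.21% were lower on day 3 and 4.82% on day 6. *Jak2*, the kinase bound to the beta chain, had a WT mean of 302 ± 17.1 RPKM and a DKI mean of 70.1 ± 10.8 RPKM on day 3 (SD, n = 3). Its log2 fold change was −2.10 on day 3 (standard error 0.18, adjusted p = 0.00477 by limma) and −2.38 on day 6 (adjusted p = 0.0162). *Pik3cg*, a catalytic subunit of PI 3-kinase, was at 103 ± 22.3 and 35.9 ± 3.57 RPKM on day 3, a log2 fold change of −1.48 (adjusted p = 0.0128 by limma), and at −1.63 on day 6 (adjusted p = 0.0192). *Pik3r1* and *Pik3r5*, regulatory subunits of PI 3-kinase, were the others called on day 6, at −1.59 and −1.19, and *Pik3r5* was not called with the replicate block, which pairs same-numbered libraries (adjusted p = 0.0551 by limma).

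Among 18 negative regulators and shedding proteases, 17 were fitted, and 1 was higher and 2 were lower in DKI MDCs on day 3, and 0 and 4 on day 6, with medians of −0.40 and −0.55. Over all genes 3.21% were higher and 4.21% lower on day 3, and 2.72% and 4.82% on day 6. *Socs2* and *Cish*, feedback inhibitors induced by STAT5, had the largest differences. The day 3 mean of *Socs2* was 102 ± 19.7 RPKM in WT against 4.85 ± 1.25 RPKM in DKI, a log2 fold change of −4.14 (adjusted p = 0.00239 by limma). *Cish* was at 184 ± 14.02 and 38.2 ± 11.7 RPKM, a log2 fold change of −2.28 (adjusted p = 0.00690 by limma). *Adam17*, a protease that sheds CSF1R from the cell surface, was higher on day 3, at 95.3 RPKM in DKI against 51.1 RPKM in WT (log2 fold change 0.88, adjusted p = 0.0277 by limma). *Socs1* and *Ptpn1* joined the lower genes on day 6, at −1.64 and −0.93. With the replicate block the calls of *Adam17* and *Ptpn1* ended (adjusted p = 0.0579 and 0.0687 by limma). Within the libraries of the later year, 4 of the 5 genes of these lists called on day 3 were still called, without *Adam17* (adjusted p = 0.0527 by limma), and on day 6 0 of 8 were (adjusted p from 0.0866 to 0.182), where 38 genes were called in all.

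None of the other lists held a gene called between the genotypes on day 3 or day 6. Of 11 transcription factors known for myeloid receptor genes, 9 were fitted, with a lowest and a highest log2 fold change of −1.09 and 2.21 on day 3 and of −1.16 and 1.31 on day 6. Of 7 ligands, *Flt3l* alone passed the RPKM limit, at −0.27 and −0.17. Of 7 related receptors, *Kit*, the receptor for stem cell factor (−1.17 on day 3 and −1.64 on day 6), and *Il6st*, the shared chain of the IL-6 receptors (0.43 and 0.97), passed it.

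**Figure D5:**
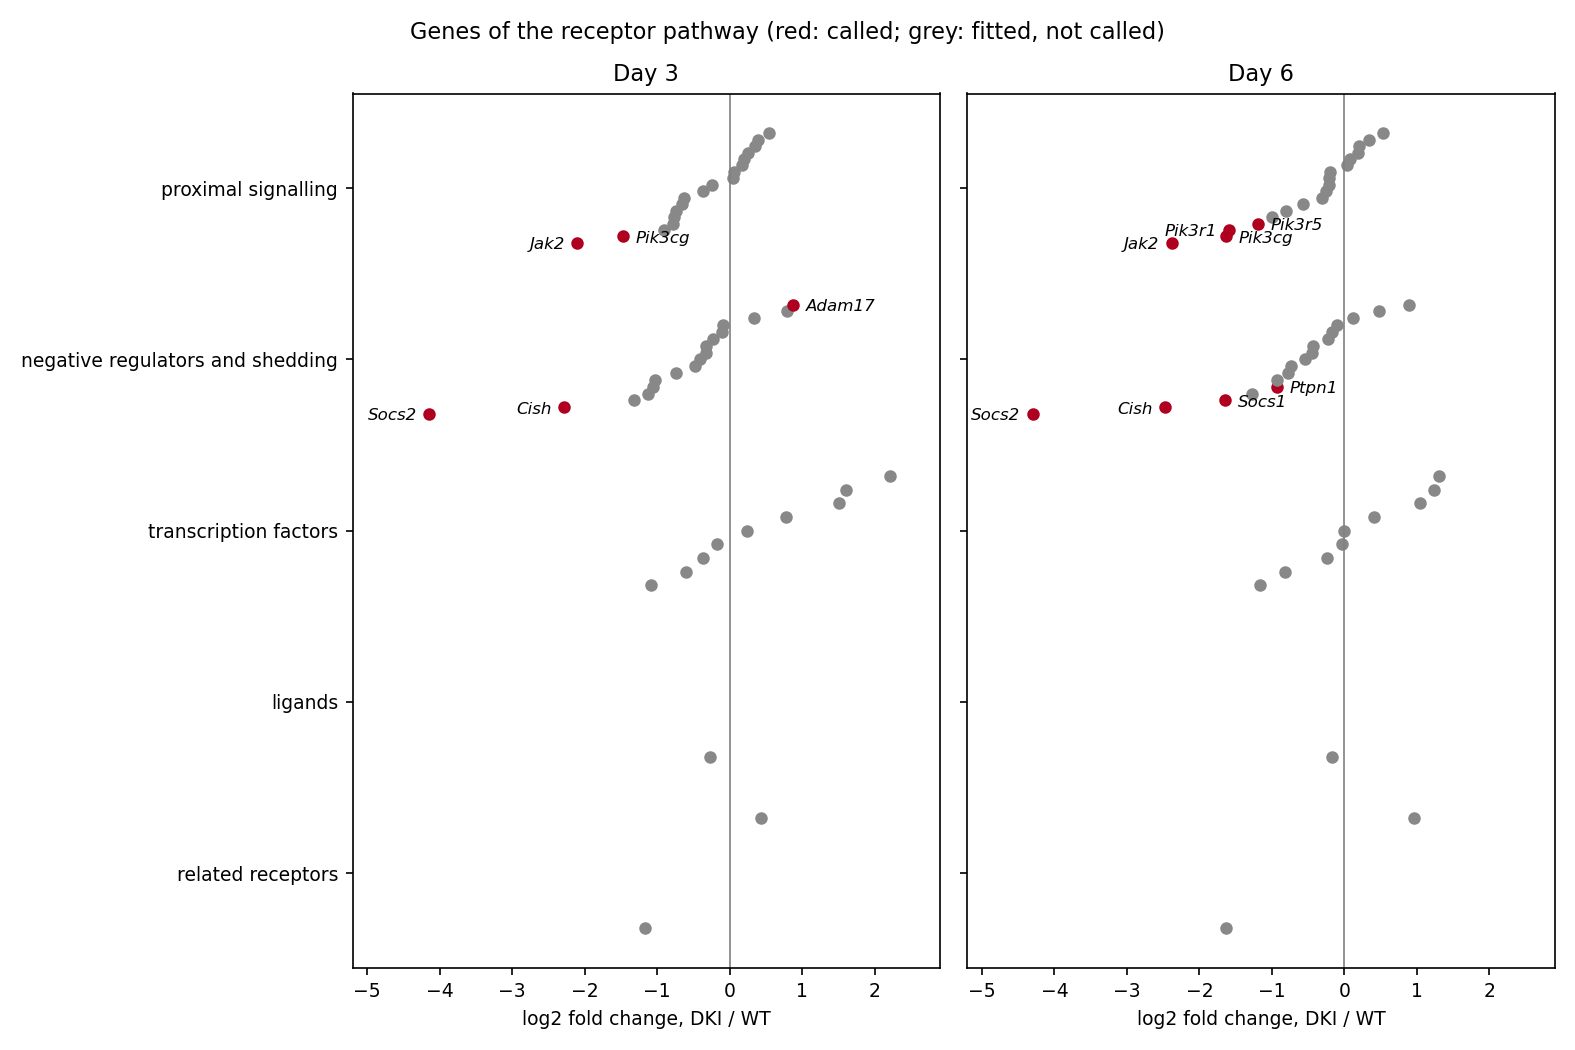
Log2 fold change of DKI against WT on days 3 and 6 for the fitted genes of 5 lists around the receptors, on the scale of log2(RPKM + 1), each point 1 gene, with called genes in red and named. *Socs2* (−4.14 and −4.30), *Cish* (−2.28 and −2.47) and *Jak2* (−2.10 and −2.38) lie farthest to the left on both days.

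For each of the 8 genes, the 3 other genes with the most similar levels over the 18 libraries were found by Pearson's r of log2(RPKM + 1) among 10416 genes, as a description. The libraries share genotype, day and replicate number and are not independent points. *Csf2rb2* was most like *Creb5* (r = 0.99), *Tnfsf8* and *Plekhb2*, and *Csf2rb* was most like *Frmd6* (r = 0.98), *Kpna6* and *Zfp318*. *Csf3r* was most like *Ifi203* (r = 0.97), *Ms4a6c* and *Ms4a6b*. *Csf1r* was most like *Lrrc25* (r = 0.95), *Tnfaip8l2* and *Slc43a2*, *Csf1* like *Ptger2* (r = 0.94), *Rab7b* and *Ube2q2*, and *Flt3* like *Trpc2* (r = 0.97), *Ccdc117* and *Cyb561d1*. *Csf2ra* was most like *Entpd5* (r = 0.92), *Esyt1* and *Galnt9*, and *Il3ra* like *Hpse* (r = 0.91), *Ccrl2* and *Trim8*. Between the genes themselves, *Csf2rb* and *Csf2rb2* had the highest r, at 0.96, and *Csf2rb* and *Il3ra* the lowest, at −0.84.

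The positions of the other genes, on GRCm38, were 61217191 to 61228461 on chromosome 19 for *Csf2ra*, 14345912 to 14355493 on chromosome 14 for *Il3ra*, 61105572 to 61131139 on chromosome 18 for *Csf1r*, 126023441 to 126044975 on chromosome 4 for *Csf3r*, 107741048 to 107760469 on chromosome 3 for *Csf1* and 147330741 to 147400489 on chromosome 5 for *Flt3*.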

How the data were processed

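RPKM values for 20298 RefSeq genes in 18 libraries were deposited, which the authors made from single-end reads with Subread (mm10) and featureCounts. Versions, strandedness, read length and the treatment of multi-mapping reads are not given in the sources used here. RPKM came out as whole reads (within 0.05) for 10417 of 10417 genes above a group mean of 2 RPKM (100% of values), which gave each library's depth. Of the gene identifiers, 20082 matched RefSeq and 216 did not.

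Values were fitted as log2(RPKM + 1), which understates changes of low genes, in R 4.3.3 with limma 3.58.1 (eBayes with trend) on the libraries of the groups compared. Single values were tested by exact two-sided permutation. Alternatives were a pseudocount of 0.1, no filter, median centring, quantile normalization, no trend, all 18 libraries together, the replicate block, the libraries of the later year, the summed beta chains, each library left out and, added after the data were seen, limma voom on recovered reads. Sequences were aligned with biopython 1.88 and figures drawn with matplotlib 3.10.9. The limma fit of DKI against WT on day 3 was tested on simulated data, and the other steps were not.

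Named genes were the 8 members, *Stat5a* and *Stat5b*, from each list the 2 called genes with the largest change per day and direction, and the 3 genes most alike to each member. Members, lists and markers were chosen with earlier results of these data known. *Pik3r1*, *Pik3r5*, *Socs1*, *Ptpn1*, *Flt3l*, *Kit*, *Il6st* and the marker genes named were chosen after their values were seen.

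Replicate numbers come from the labels, and the study states 3 independent experiments. Deviations from the group mean correlated between same-numbered WT and DKI libraries (0.686 to 0.865 on day 0, 0.163 to 0.369 on day 3, 0.338 to 0.413 on day 6) and between days 3 and 6 (0.125 to 0.743), so the numbers pair these libraries. Between days 0 and 3 they did not (−0.208 to 0.180). The fits reported are without the block, and for the 8 genes and the list genes named as called, the blocked value is given where it ends the call.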

Additional observations from a re-analysis of the deposited data

Results flagged for a closer look

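The effect of the genotype on *Csf3r* differed between day 0 and day 3, by 3.20 on the log2 scale in the interaction term (standard error 0.74, adjusted p = 0.0478 by limma). All 3 WT libraries of day 3 were below all WT libraries of day 0, whereas DKI replicate 1 of day 3 was above every DKI library of day 0 and the other DKI libraries were below them. Without DKI day 3 replicate 1 the difference was 2.47. Of 10 neutrophil genes, 4 were also higher in every DKI library of day 3 and the others overlapped, and their part in the difference was not tested. Over all genes fitted on day 3, the genotypes did not overlap in either direction for 36.3%.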

How the results depend on the processing

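The settings tried changed no direction of a called difference, and 1085 of 1144 values for single genes kept their side of the threshold. On day 3, where 2 of the 8 genes were called between the genotypes, 0 were called with no filter on low values, 1 with the replicate block and 0 with voom on recovered reads. On day 6, again from 2, there were 0 with no filter, 1 with median centring, 1 with quantile normalization, 1 with the replicate block, 0 within the libraries of the later year and 0 with voom. The interaction of genotype with days 0 and 3, called for 1 gene, was called for 0 with no filter, with median centring, with all 18 libraries fitted together and with voom. With a library left out, the count ran from 0 to 2 on day 3, from 0 to 2 on day 6 and from 0 to 1 for the interaction, while the genes called in all ran from 197 to 715, from 90 to 984 and from 125 to 336. The replicate block, which pairs same-numbered libraries, ended the calls of *Csf2rb2* (adjusted p = 0.0711 and 0.0667 by limma) and changed no other call among the 8 genes. With no filter, the adjusted p of *Csf3r* by limma was 0.0881 on day 3 and 0.0750 on day 6, and voom gave 0.0568 and 0.0659, at log2 fold changes of 3.55 and 3.84. The causes of these losses were not tested. For genes called under neither setting, 15 values changed sign across settings and 56 with a library left out. *Csf1* on day 3 was called with quantile normalization (adjusted p = 0.0494 by limma), and *Flt3* on day 6 with all 18 libraries fitted together (0.0237). Over all genes, voom called 522 genes on day 3 against 723, 464 on day 6 against 742, and 90 for the interaction against 297, no filter called 358, 187 and 229, the later year 369, 38 and 287, and all 18 libraries together 1359, 1573 and 265. Median centring moved the day 6 split from 268 higher and 474 lower to 323 and 285, and that of DKI day 3 against day 0 from 1297 and 2097 to 1743 and 1622. The calls between the genotypes lie close to the threshold, and the number of libraries limits their precision.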

Other observations

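Values over time for genes next to the receptors are given here, and those named were chosen after their values were seen. From day 0 to day 3, 6 of the 17 fitted negative regulators were called higher and 4 lower in WT, where 43.1% of all genes were called, and 5 and 4 were in DKI, where 34.2% of all genes were called. *Socs1*, a feedback inhibitor of JAK kinases, rose from 1.22 to 76.8 RPKM in WT and from 1.11 to 39.4 RPKM in DKI group means. *Dok2*, an adaptor that dampens receptor tyrosine kinases, rose from 7.13 to 267 RPKM in WT and from 7.70 to 110 RPKM in DKI. Of the 18 genes of proximal signalling, 4 were called higher and 6 lower in WT, and 0 and 3 in DKI. *Lyn*, a Src family kinase that acts on the beta chain, fell in both genotypes, from 208 to 67.8 RPKM in WT and from 205 to 70.7 RPKM in DKI. *Jak2* rose from 49.9 to 302 RPKM in WT (log2 fold change 2.60, adjusted p = 0.000197 by limma) and stood at 50.6 and 70.1 RPKM in DKI (0.49, 95% interval −0.11 to 1.09, not called).

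Of 10 transcription factors fitted from day 0 to day 3, 2 were called higher and 4 lower in WT, and 1 and 2 in DKI. Over all genes 43.1% were called in WT and 34.2% in DKI. Among these factors, *Gata2*, a factor of blood progenitors that mast cells and basophils also express, rose from 2.79 to 27.9 RPKM in WT and from 3.02 to 14.6 RPKM in DKI (adjusted p = 4.95e-05 and 0.0268 by limma). Of the 6 genes listed as markers of those cells, which include *Gata2*, *Mcpt8* was at 55.8, 21.2 and 4.83 RPKM on day 0 and 1.99, 10.7 and 0.371 RPKM on day 3 in WT, and the sum of the 6 overlapped between these days, from 13.7 to 73.7 and from 34.8 to 47.2 RPKM. *Cebpb* fell in both genotypes, from 390 to 62.6 RPKM in WT and from 405 to 157 RPKM in DKI, and the DKI call ended with the replicate block (adjusted p = 0.0503 by limma).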
